A study of Rattus norvegicus with 4 samples.

Results

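Cytochrome P450 enzymes of family 2 outside the 2C subfamily were represented on the array by 11 genes, measured by 20 probes out of 1936. The members were all probes whose gene symbol in the platform's probe table begins with Cyp2 and a letter other than c, with no use of the measured values. They were Cyp2a3, Cyp2b12, Cyp2b21, Cyp2d2, Cyp2d4, Cyp2e1, Cyp2f4, Cyp2j3, Cyp2j10, Cyp2t1 and Cyp2u1, 11 of the 958 named genes on the array. Cyp2e1 had 7 probes from 5 cDNA clones, Cyp2d4 and Cyp2j3 had 2 probes from 2 clones each, Cyp2f4 had 2 spots of 1 clone, and the other 7 genes had 1 probe each. All 11 symbols matched the RefSeq gene table of assembly GRCr8, which lists 30 protein-coding members of family 2 outside 2C, so many relatives, such as Cyp2b1 and Cyp2b2, had no named probe here. No member probe carried several symbols, and no member was lost to a filter.

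Livers of male Sprague-Dawley rats of 250 to 300 g were taken 12 h after surgery under ether, from animals whose common bile duct had been tied (ligation) and from animals whose duct was exposed but not tied (sham). The labels name no allele, drug treatment or age for either group. RNA of the right lateral lobe of 3 rats per group was pooled, and poly(A) RNA of both pools was hybridised together to each of 4 cDNA arrays on glass. On arrays 1 and 3 the dye of the ligation RNA was Cy5 and that of the sham RNA Cy3, and arrays 2 and 4 had the dyes exchanged. Nothing in the labels says that the arrays used separate pools, so every p-value measures the spread between arrays and not between animals. In the limma fits that spread was mostly pooled over all features, with 10.4 prior and 2 residual degrees of freedom in the gene fit. The SE, interval and p of a gene thus rest only in small part on its own 4 values.

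The enzymes of family 2 are haem proteins of the endoplasmic reticulum that insert oxygen into drugs, solvents, steroids and fatty acids, using electrons passed on by the reductase Por. In the liver they are made mainly by hepatocytes, several of them most strongly near the central vein. Many genes of the family respond to nuclear receptors and fall in inflammation. Cyp2e1 oxidises ethanol, acetone and paracetamol. The 2B enzymes include the classical phenobarbital-inducible forms of the rat, and the 2J enzymes and Cyp2u1 act on arachidonic and other long-chain fatty acids.

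Each value is a log ratio as deposited, read here as ligation over sham and as base 2. The order of the channels makes that direction likely, but neither it nor the base is stated. Arrays of the same dye orientation correlated at r = 0.93 and 0.94 across probes, and those of opposite orientation at -0.45 to -0.28. Each array was then centred on the median of all its 1936 spots, since the deposited medians were -1.26, 0.43, -0.96 and 0.26 on arrays 1 to 4. A ratio gives no level, so the tissue could not be checked by the abundance of its markers, and a smaller share of hepatocytes cannot be told apart from less RNA per hepatocyte. Signal over background is unknown, and the number of arrays limits the precision.

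Of the 11 genes, 5 were lower in the ligation pool and 1 was higher at a limma adjusted p under 0.05, with adjustment over all 1174 features tested. Over all features 28.6% were called, 16.6% lower and 12% higher. The lower genes were Cyp2b21, Cyp2a3, Cyp2e1, Cyp2d4 and Cyp2f4, and the higher gene was Cyp2u1. At 1.5-fold or more, Cyp2b21 was the 1 member called lower and Cyp2u1 the 1 called higher, against 5.28% and 1.79% of all features. The median of the 11 genes was -0.16, and that of all features was -0.01 (-0.013). Without centring every feature moved by -0.38, and 10 members were called lower and 1 higher, against 82.2% and 1.7% of all features. The number of lower members therefore depends on the zero point, whereas the order of the members does not. Read as Cy5 over Cy3, the table called 8 members higher and 1 lower, against 45.4% and 33.4% of features. That reading was fitted on centred values only, and in it the ligation ratio of each gene is its dye term, given below. With the arrays centred on probes in the top quartile of the dye term, 5 members were lower and 1 higher, against 13.9% and 6.73% of features. Without a dye term in the fit, limma called 0 members and 0 of all features, with 1 member at an unadjusted p under 0.05.

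**Figure D1:**
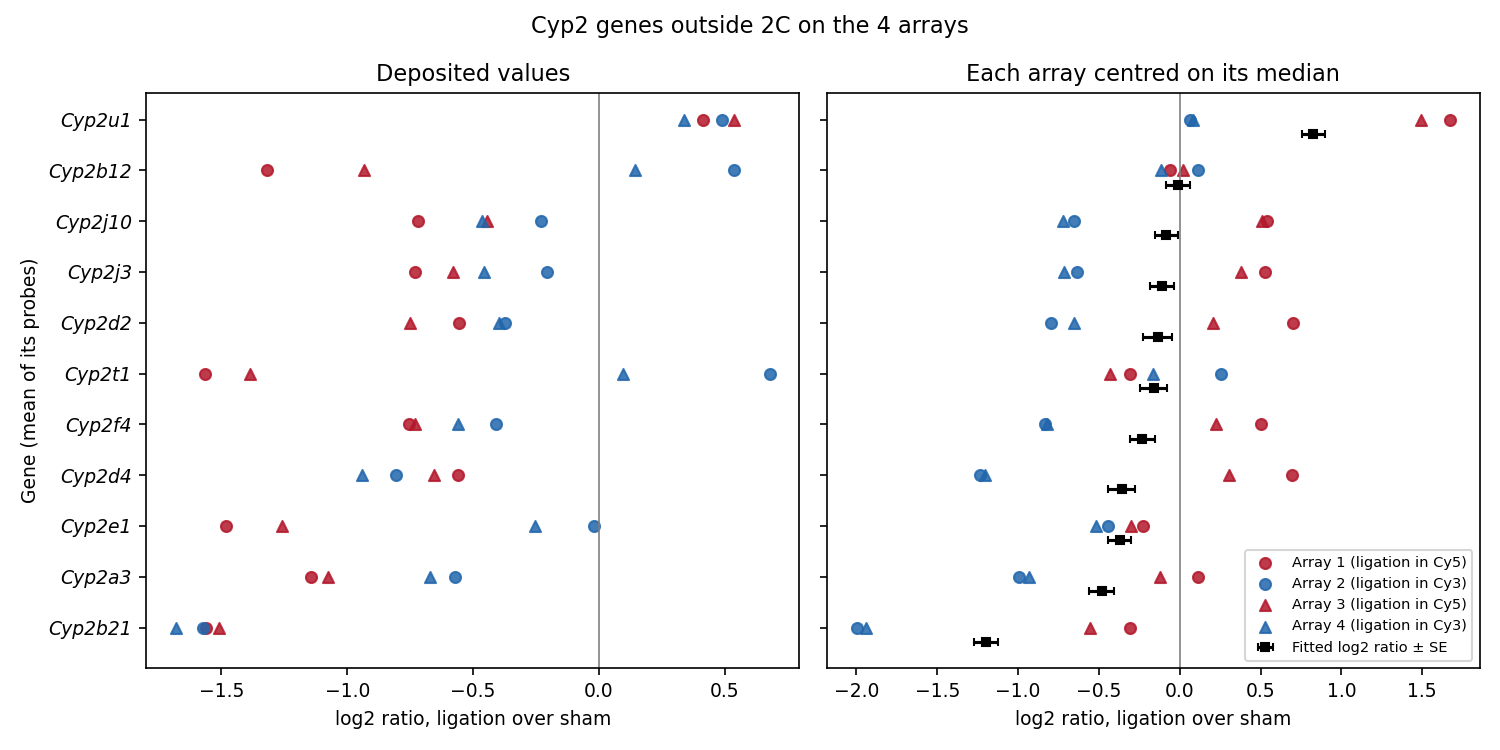
Log2 ratio of each Cyp2 gene outside 2C (mean of its probes) on the 4 arrays, as deposited (left) and after centring each array on its median (right), with red for ligation in Cy5, blue for ligation in Cy3 and black squares for the fitted ratio with its standard error. The deposited values of Cyp2b21 lie between -1.68 and -1.51 and those of Cyp2u1 between 0.34 and 0.54 whatever the dye, while those of Cyp2b12 and Cyp2t1 change sign with the dye.

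The stretches of 250 bases before the annotated start of 4 genes are printed in 5′ to 3′ direction from RefSeq, build GRCr8. Cyp2b21 and Cyp2u1 are shown as the members with the largest ratio in either direction, Cyp2b12 as the 2B relative of Cyp2b21 whose ratio lay at the array median, and Cyp2e1 as the member with the most probes. They lie at chr1:91042753-91043002 on the minus strand (Cyp2b21), chr1:91135044-91135293 on the plus strand (Cyp2b12), chr1:205269717-205269966 on the plus strand (Cyp2e1) and chr2:222540990-222541239 on the minus strand (Cyp2u1). Capitals mark matches, on either strand, to the TATA box TATAAA, the CCAAT box CCAAT, the nuclear receptor core motif AGGTCA and the GC box GGGCGG.
Cyp2b21: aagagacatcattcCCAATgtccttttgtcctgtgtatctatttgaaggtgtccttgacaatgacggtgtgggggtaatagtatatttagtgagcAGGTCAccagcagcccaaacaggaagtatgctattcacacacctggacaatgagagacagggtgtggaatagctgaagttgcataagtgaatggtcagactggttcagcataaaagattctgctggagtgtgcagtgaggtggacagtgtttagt
Cyp2b12: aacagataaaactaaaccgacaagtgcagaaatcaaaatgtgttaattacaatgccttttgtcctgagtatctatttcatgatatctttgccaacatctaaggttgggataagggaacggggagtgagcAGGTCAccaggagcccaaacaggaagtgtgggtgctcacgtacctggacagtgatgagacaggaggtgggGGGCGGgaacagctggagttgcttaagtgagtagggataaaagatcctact
Cyp2e1: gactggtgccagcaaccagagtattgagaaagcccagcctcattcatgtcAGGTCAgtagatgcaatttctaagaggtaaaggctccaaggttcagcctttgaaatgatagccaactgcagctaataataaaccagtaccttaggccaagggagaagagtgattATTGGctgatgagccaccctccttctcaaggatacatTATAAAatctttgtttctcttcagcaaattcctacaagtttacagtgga
Cyp2u1: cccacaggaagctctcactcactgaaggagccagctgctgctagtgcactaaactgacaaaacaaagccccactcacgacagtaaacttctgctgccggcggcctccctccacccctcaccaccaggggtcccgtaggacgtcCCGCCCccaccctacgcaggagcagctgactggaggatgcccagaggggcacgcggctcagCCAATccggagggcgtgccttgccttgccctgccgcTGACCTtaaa

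The AGGTCA motif was found before these 4 genes and no other member, so in 4 of 11 windows, against 14.1% of the 33469 windows of this length in the table. The matches of the related genes Cyp2b21 and Cyp2b12 have the same neighbouring letters on both sides, so they are not independent. In Cyp2b21 it stands 155 to 150 bases before the start, in Cyp2b12 121 to 116, in Cyp2e1 200 to 195 and in Cyp2u1, on the other strand, 10 to 5. TATAAA stands 49 to 44 bases before the start of Cyp2e1 and 52 to 47 before that of Cyp2a3, and was found in 12.9% of all windows. CCAAT was found in 5 of 11 members and 34.0% of all windows, and GGGCGG in 6 of 11 and 30.5%. The window of Cyp2u1 has 12 CG pairs and 63.2% G and C, against medians of 5 pairs and 51.2% over all windows, while that of Cyp2e1 has 0 CG pairs and 42.8%. In a global alignment, the windows of Cyp2b21 and Cyp2b12 shared 162 identical bases, 78.6% of 206 aligned pairs in an alignment of 294 columns with gaps. That was the highest identity over the alignment, 55.1%, among the 55 pairs of members. The windows of the 2J genes came next at 50.4%. These matches describe the letters of the windows only.

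Cyp2b21 (gene number 292728) was the member with the lowest ratio. The deposited values were -1.56, -1.57, -1.51 and -1.68 on arrays 1 to 4, a spread (SD) of 0.07. After centring they were -0.31, -1.999, -0.55 and -1.94, an SD of 0.90 that includes the difference between the dyes. All 4 arrays were below 0, and the arrays with ligation in Cy3 were lower than those with ligation in Cy5, without overlap. The fitted ratio was -1.20 ± 0.08 (moderated SE of limma, 4 arrays), 2.30-fold lower in the ligation pool. The 95% interval ran from -1.36 to -1.04, with a limma adjusted p of 1.21e-07. The SE is close to the median SE of the named genes, 0.076, as most of it is pooled over features. Cyp2b21 was among the lowest of these genes. It ranked ninth from the bottom (rank 9 of 958). Its dye term, the part of the centred ratio that changes sign with the dye, was 0.77. After centring, that would be the ligation ratio if the table held Cy5 over Cy3, and the gene would be higher, not lower. Uncentred, that reading would put the arrays with ligation in Cy5 below 0 and the others above 0.

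Cyp2b12, a 2B relative known as an arachidonic acid epoxygenase of the skin's sebaceous glands, lay at the median of each array. Its centred values were -0.06, 0.11, 0.02 and -0.12, and the fitted ratio was -0.01 ± 0.08 (interval -0.17 to 0.15, limma adjusted p = 0.954). The deposited values were -1.32, 0.54, -0.93 and 0.14, and so followed the array medians. In the RefSeq order both 2B genes belong to a cluster on chromosome 1 that runs through Cyp2b21, Cyp2b12, Cyp2a3, Cyp2f4 and Cyp2t1, with other family 2 genes between them. Cyp2b12 exceeded Cyp2b21 on each array, by 0.24, 2.11, 0.57 and 1.82 on the log2 scale (mean 1.19 ± 0.92, SD, which includes the difference between the dyes). The exact sign-flip permutation test of this difference gave p = 0.125 (two-sided), which is the smallest p that 4 arrays allow. Both values come from 1 probe each, and cDNA probes of this family can bind transcripts of relatives, so a value may not belong to the named gene alone.

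Cyp2a3, an enzyme best known from lung and nasal tissue of the rat, was lower. The centred values were 0.11, -0.996, -0.12 and -0.93, with 3 of 4 arrays below 0 and the lowest on the arrays with ligation in Cy3. The fitted ratio was -0.48 ± 0.08, 1.40-fold lower, with an adjusted p of 0.000302 in limma. The deposited values were -1.14, -0.57, -1.08 and -0.67, below 0 on each array.

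Cyp2f4, whose relatives in lung activate naphthalene, is the next member of the cluster. Its centred values were 0.50, -0.83, 0.22 and -0.82, so the arrays split by dye. The fitted ratio was -0.23 ± 0.08, 1.17-fold lower, with an adjusted p of 0.038. That call was lost without array 2, 3 or 4 (adjusted p = 0.156, 0.156 and 0.147), and only 1 of its 2 spots was called alone, at -0.27 (adjusted p = 0.0325) against -0.19 (0.0915). Cyp2t1, an enzyme with no well-established substrate, ends the cluster. Its centred values were -0.31, 0.25, -0.43 and -0.16, and the fitted ratio of -0.16 ± 0.08 did not pass (adjusted p = 0.185).

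The gene mean of Cyp2e1 (gene number 25086) over its 7 probes was below 0 on each array, at -0.22, -0.44, -0.30 and -0.52 after centring. Among all features 7.5% were below 0 on all 4 arrays. The SD over arrays was 0.13 after centring and 0.72 in the deposited values, which followed the array medians. The fitted ratio was -0.37 ± 0.07, 1.29-fold lower (interval -0.53 to -0.22), with a limma adjusted p of 0.00158. This mean combined probes that did not give the same ratio. With the median of the probes in its place the value was -0.21 and the call was lost (adjusted p = 0.0546).

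A pair of Cyp2e1 probes carried the lower mean. Probe 1234 had centred values of -0.42, -2.36, -0.72 and -1.93, and a fitted ratio of -1.36 ± 0.09, with adjusted p = 6.84e-08 when each of 1648 probes was tested alone by limma. Probe 1639 had -0.36, -1.997, -0.58 and -1.64, and -1.14 ± 0.09 (adjusted p = 2.26e-07). Both were below 0 on each array, and their deposited values lay between -1.93 and -1.38 whatever the dye, as those of Cyp2b21 did. Among all 20 member probes, 7 were called lower (the pair, both probes of Cyp2d4, 1 spot of Cyp2f4 and the single probes of Cyp2a3 and Cyp2b21) and 1 higher (Cyp2u1), while 27.9% of all probes were called, 16.1% lower and 11.8% higher.

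The other 5 probes of Cyp2e1 were not called. Their fitted ratios were -0.14 ± 0.09 (probe 437), -0.10 ± 0.10 (probe 1363), -0.06 ± 0.09 (probe 222), 0.06 ± 0.09 (probe 130) and 0.14 ± 0.08 (probe 1345), with adjusted p from 0.245 to 0.738. Their mean was -0.02, against -1.25 for the low pair, a split made after the values were seen and given with no test. The deposited values of these 5 ran from -1.96 to 1.39 and changed with the dye. Probe 130 was the extreme, with centred values of -0.62, 0.97, -1.004 and 0.90 and a dye term of -0.87, so its arrays with ligation in Cy5 were low and the others high.

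Probes 1345 and 1639 are listed with the same clone. Probe 1639 minus probe 1345 was -0.36, -2.35, -0.62 and -1.80 on the 4 arrays, and the fitted ratios differed by 1.28. On the whole array 21 pairs of spots shared a clone listing, and their ratios differed by a median of 0.08 (0.0834). The Cyp2e1 pair was the 1 pair that differed by more than 0.5. The other pair of spots of 1 Cyp2e1 clone, probes 222 and 437, differed by 0.08 (0.0765), and the pair of Cyp2f4 by 0.08 (0.0764). The probe range of Cyp2e1, 1.498, was the fifth widest (rank 5) of 340 genes with several probes, whose median range was 0.13. Averaging spots of the same clone first, an alternative chosen after seeing the data, left the gene called.

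**Figure D2:**
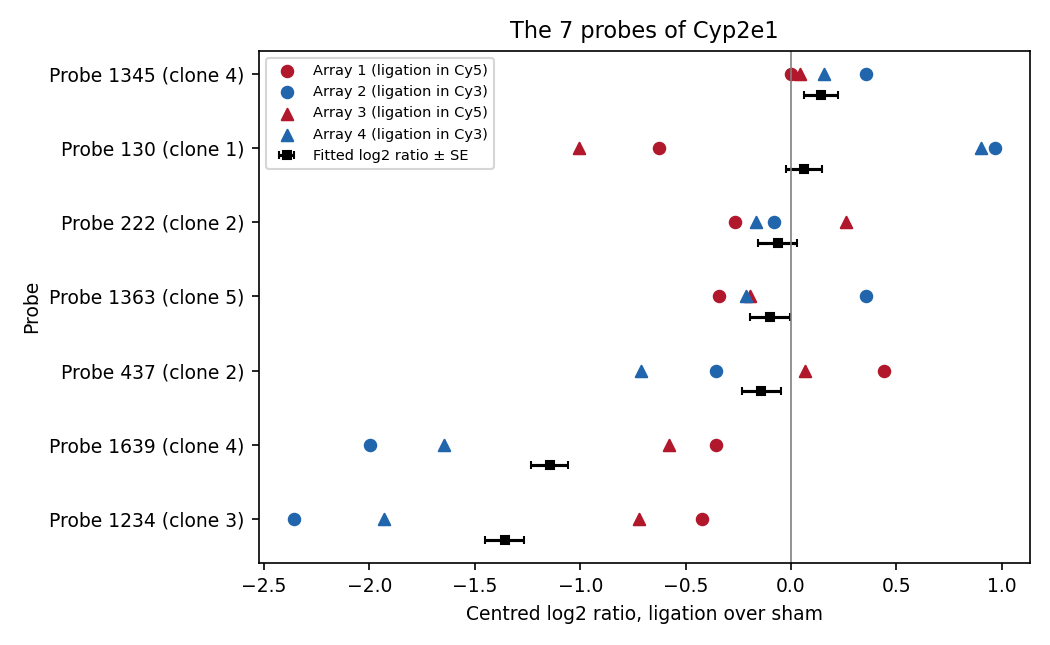
Centred log2 ratio of the 7 Cyp2e1 probes on the 4 arrays (red, ligation in Cy5; blue, ligation in Cy3) with the fitted ratio and its standard error in black; clone numbers mark probes listed with the same cDNA clone. Probes 1234 and 1639 lie at -1.36 and -1.14, and the other 5 between -0.14 and 0.14.

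**Figure D3:**
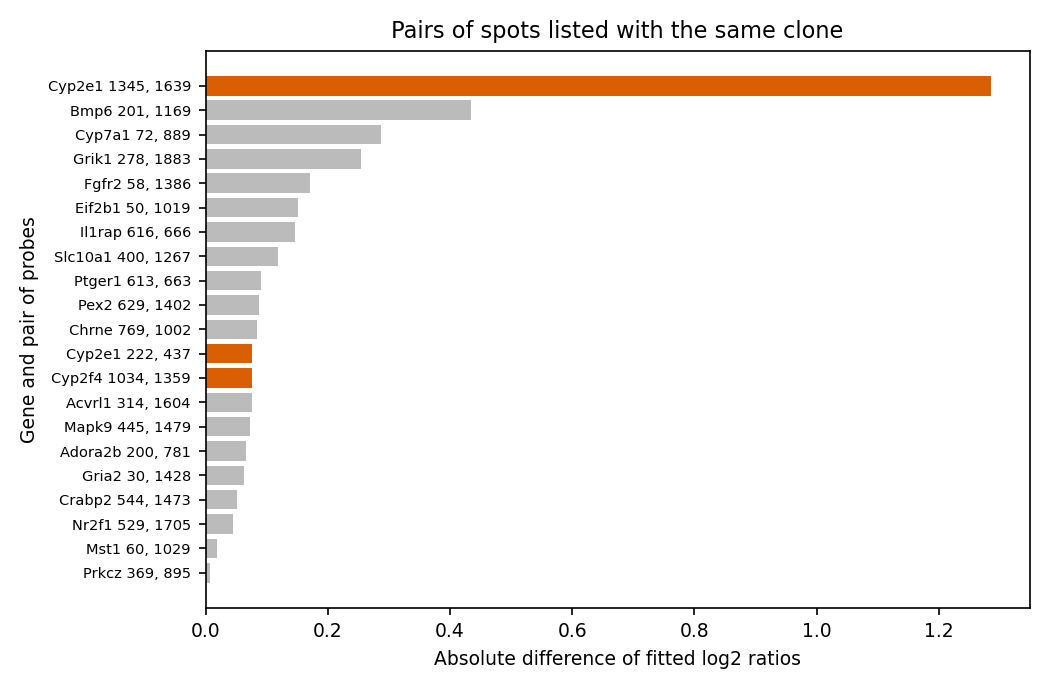
Absolute difference of the fitted log2 ratios of the 21 pairs of spots listed with the same clone, with pairs of Cyp2 genes outside 2C in orange. Probes 1345 and 1639 of Cyp2e1 differ by 1.28, and every other pair by 0.43 or less.

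Cyp2d2 and Cyp2d4 were the measured genes of the 2D subfamily, which in the rat oxidises debrisoquine and many amine drugs. Cyp2d4, a form known from the brain as well, had centred values of 0.70, -1.23, 0.30 and -1.20, below 0 only on the arrays with ligation in Cy3. Its fitted ratio was -0.36 ± 0.08, 1.28-fold lower (limma adjusted p = 0.00452), and its probes, from separate clones, gave -0.37 and -0.35, both called. The deposited values were -0.56, -0.81, -0.65 and -0.94, below 0 on each array. Cyp2d2 had centred values of 0.70, -0.80, 0.21 and -0.66 and did not pass, at -0.14 ± 0.09 (interval -0.33 to 0.05, adjusted p = 0.314). Without array 1 it was called, at -0.26 (adjusted p = 0.0422). The difference of Cyp2d2 minus Cyp2d4 was 0.01, 0.44, -0.10 and 0.55 on the 4 arrays, so these genes did not differ in the same direction throughout (exact permutation p = 0.375).

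Cyp2j3 and Cyp2j10 gave closely similar values. Cyp2j3, an epoxygenase of arachidonic acid in liver and heart, had centred values of 0.53, -0.63, 0.38 and -0.72 and a fitted ratio of -0.11 ± 0.07 (interval -0.27 to 0.05, adjusted p = 0.325). Its probes, from separate clones, gave -0.12 and -0.10. Cyp2j10 had 0.54, -0.66, 0.51 and -0.72 and a fitted ratio of -0.08 ± 0.07 (interval -0.24 to 0.07, adjusted p = 0.482). Neither passed in limma, and each pair of arrays of opposite dye lay on opposite sides of 0. Cyp2j10 minus Cyp2j3 was between -0.02 and 0.13 on the 4 arrays.

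Cyp2u1 (gene number 310848), a fatty acid hydroxylase better known from brain and thymus than from liver, was the higher member. The deposited values were 0.41, 0.49, 0.54 and 0.34, above 0 on each array although the medians of arrays 1 and 3 were far below 0. The SD of these values was 0.09. After centring they were 1.67, 0.07, 1.49 and 0.08 (SD 0.87). The arrays with ligation in Cy5 were high, and those with ligation in Cy3 lay just above 0. The fitted ratio was 0.83 ± 0.07, 1.77-fold higher (interval 0.67 to 0.99, limma adjusted p = 2.89e-06), and it ranked seventh from the top of the named genes (rank 7 of 958). Of all features, 5.45% were above 0 on all 4 arrays. As ligation over sham without centring, Cyp2u1 was at 0.45. The dye term of the centred values was 0.75, so after centring the gene would also be higher if the table held Cy5 over Cy3. Uncentred, that reading would put the arrays with ligation in Cy5 above 0 and the others below 0.

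Cyp2b21 and Cyp2u1 differed by nearly the same amount on every array. Cyp2b21 minus Cyp2u1 was -1.98, -2.06, -2.05 and -2.02, a mean of -2.03 with an SD of 0.04. The centring cancels in such a difference. Read as Cy5 over Cy3, however, the ligation ratios were 0.77 for Cyp2b21 and 0.75 for Cyp2u1. The contrast between these genes therefore holds for ligation over sham only. Of the 55 pairs of members, 23 differed in the same direction on all 4 arrays. In each of these the exact sign-flip permutation test (two-sided) gave the smallest p that 4 arrays allow, 0.125, or 0.299 after Benjamini-Hochberg adjustment over the pairs, so no pair could pass. The share among pairs of other genes is not given here, so the count cannot be read as particular to the members. In order of the fitted ratios the members ran Cyp2b21, Cyp2a3, Cyp2e1, Cyp2d4, Cyp2f4, Cyp2t1, Cyp2d2, Cyp2j3, Cyp2j10, Cyp2b12 and Cyp2u1. From Cyp2a3 to Cyp2b12 the steps between neighbours were 0.01 to 0.13, and the fitted 95% intervals of each pair of neighbours overlapped. The interval of Cyp2b21 did not overlap that of Cyp2a3, 0.72 above it, with a step of 0.43 where ligation was in Cy5 and 1.01 where it was in Cy3. The interval of Cyp2u1 did not overlap that of Cyp2b12, 0.84 below it, but the step was 1.60 where ligation was in Cy5 and 0.07 where it was in Cy3.

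The dye term was part of most of these centred values. Its zero point, like that of the ligation ratio, was set by the array medians, which differed between the dye orientations. Cyp2b21, with a dye term of 0.77, had deposited values between -1.68 and -1.51 whatever the dye. Those of Cyp2b12, with a dye term of -0.01, changed sign with the dye. After centring, the dye term was called in 9 of 11 members by limma, above 0 in 8 and below 0 in Cyp2t1 (-0.21). Of all features 78.8% were called, 45.4% above 0 and 33.4% below. It ran from -0.21 to 0.86 (Cyp2d4). The spread of the ligation ratio over features grew with the dye term, from an SD of 0.08 (0.0769) in the lowest quartile of it to 0.51 in the highest. In the highest quartile, where 7 members lay, 33% of features were called lower and 20.1% higher, and of the 7 members 3 were lower and 1 higher. No member lay in the lowest quartile, where 2 of 294 features were lower and 3 higher. How far signal strength sets both measures was not tested.

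**Figure D4:**
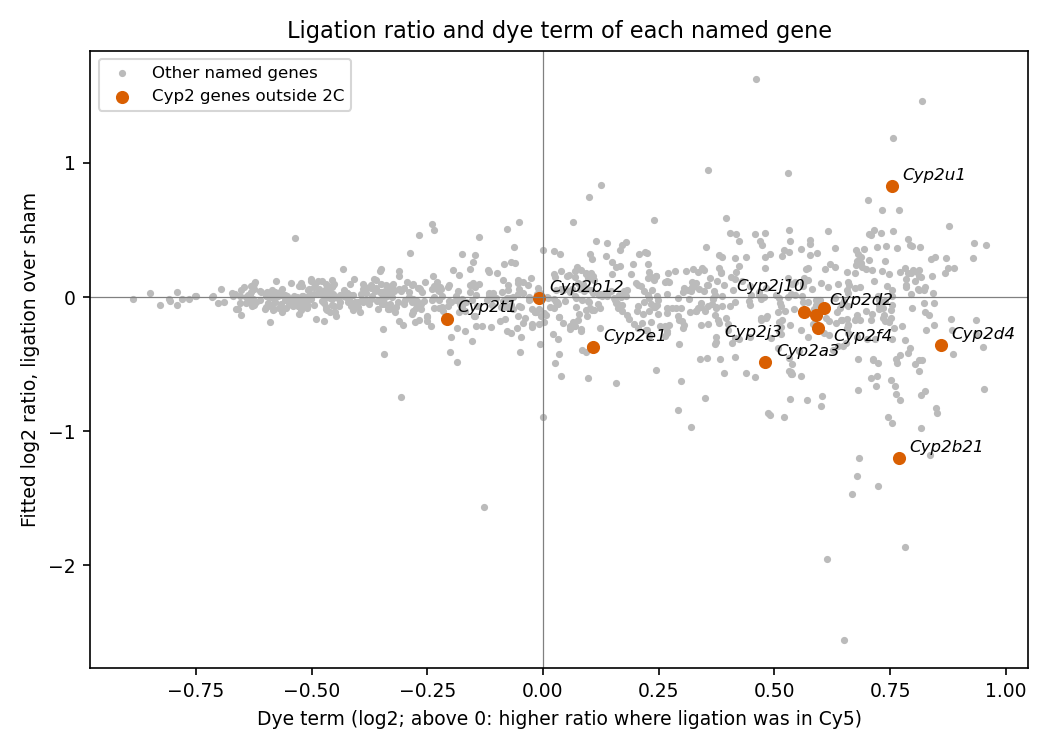
Fitted log2 ratio of ligation over sham (vertical) against the dye term (horizontal), both from centred values, for 958 named genes, with the 11 Cyp2 genes outside 2C in orange. Genes with a dye term far below 0 lie close to a ratio of 0, and 7 members have a dye term in its top quartile, above 0.54.

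By the root-mean-square difference of the 4 centred array values, the named genes nearest to Cyp2b21 were Ece1 (0.10), Notch3 (0.16) and Tspo (0.22). Those nearest to Cyp2u1 were Npm1 (0.12), Nr1h2 (0.18) and Nr0b2 (0.21), and those nearest to the Cyp2e1 mean were Ifnar1 (0.10), Grip2 (0.12) and Nqo1 (0.12). For Cyp2a3 they were Hao2, Rxra and Creld2 (0.06 to 0.09), for Cyp2b12 Stk24, Plau and Plec (0.04 to 0.06), and for Cyp2t1 Tnxa-ps1, Slc6a4 and Akr1a1 (0.06 to 0.07). For Cyp2d2 they were Gnrhr, Cubn and Mapk14, for Cyp2d4 Mst1, Csnk1g3 and Sod1, and for Cyp2f4 Dhcr7, Sqstm1 and Gys2 (0.07 to 0.10 in all). Cyp2j10 and Cyp2j3 were among each other's nearest genes (0.07), beside Gcgr and Copg1 for the former and Scd2 and Mast2 for the latter. These distances rest on 4 arrays that share the same dye layout.

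Beside the members, other gene lists of the same system are given in both readings of the direction. The calls below were made for ligation over sham, and many but not all of them change in the other reading. Every list count stands beside the shares over all features, 16.6% lower and 12% higher. As Cy5 over Cy3 these shares were 33.4% lower and 45.4% higher, and without centring 82.2% and 1.7%. Each list holds few genes, and no set test was run. Of 6 electron transfer genes listed beside the P450 enzymes, all 4 measured were called lower, against 16.6% of all features, with a median of -0.44. They were Cyb5b (-0.81 ± 0.08), Cyb5a (-0.58 ± 0.08), the reductase Cyb5r3 (-0.30 ± 0.07) and Por (-0.24). The 6 probes of Cyb5a ran from -1.06 to 0.52 and the 2 of Cyb5r3 from -0.57 to -0.03. Those of Por ran from -0.36 to -0.04, and those of Cyb5b from -0.85 to -0.76. Without array 4 only 2 of the 4 genes were called lower, and without array 2 or array 3, 3. Read as Cy5 over Cy3, 3 were higher and 0 lower, with Cyb5b at 0.60, Cyb5a at 0.54 and Por at 0.22. In the 2C subfamily, 2 of 4 genes were higher and 1 lower, with a median of 0.17 that became -0.21 without centring. Cyp2c22 was at 1.46 ± 0.10, Cyp2c12 at 0.34 ± 0.07 (-0.05 without centring) and Cyp2c23 at -0.27 ± 0.08. The 4 probes of Cyp2c12 ran from -0.21 to 1.32, and the 3 of Cyp2c22 from 1.36 to 1.52. The call of Cyp2c23, whose 3 probes ran from -0.82 to 0.14, was lost without array 3 or array 4, under quantile normalization and with the median of the probes. In the other reading 3 of the 4 genes were higher and 0 lower. Of 8 genes of families 1, 3 and 4, 5 were lower, against 16.6% of all features, and none higher (median -0.39). The lowest were Cyp1a2 (-1.86), Cyp4f4 (-0.88) and Cyp3a23-3a1 (-0.70). Read as Cy5 over Cy3, 6 of the 8 were higher and 1 lower, against 45.4% and 33.4% of all features. Cyp1a2 was then at 0.78, Cyp4f4 at 0.49 and Cyp3a23-3a1 at 0.68.

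Of 6 measured steroid and bile acid enzymes of the P450 superfamily, 3 were lower, against 16.6% of all features, and 3 did not pass (median -0.38). The lower ones were Cyp8b1 (-1.56), Cyp7a1 (-0.90) and Cyp27a1 (-0.66). In the Cy5 over Cy3 reading 2 of the 6 were higher and 1 lower, against 45.4% and 33.4% of all features. Cyp27a1 was then at 0.72, Cyp8b1 at -0.13 and Cyp7a1 at -0.00036. The Cyp8b1 value is the mean of probes at -3.04 and -0.09. Of 5 other oxidation and epoxide enzymes, the amine oxidase Maob (-0.84 ± 0.10) and the aldehyde dehydrogenase Aldh2 (-0.70 ± 0.08) were lower. The higher ones were Aldh1a1 (0.56, but 0.18 without centring) and Ephx2 (0.49, but 0.11 without centring). The median of this list was -0.20, and in the Cy5 over Cy3 reading 4 were higher and 0 lower. Neither measured haem gene passed, Blvra at -0.19 and Hmox2 at -0.05 (median -0.12), and in the other reading 1 was higher and 1 lower.

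Of 26 listed regulators of family 2 genes, 11 were measured, 3 higher, 3 lower and 5 not past the test (median 0.03). Over all features 12% were higher and 16.6% lower. The retinoid X receptor Rxra, the dimer partner of the receptors that induce 2B genes, was at -0.50 ± 0.07, the mean of a probe at -0.90 and a probe at -0.09. The bile acid receptor Nr1h4 was at -0.64 ± 0.09 and the growth hormone signal transducer Stat5b at -0.35 ± 0.08. The NF-kappa-B subunit Nfkb2 (0.83) and the repressor Nr0b2 (0.65) were higher with and without centring. Cebpd, at 0.30, was at -0.09 without it. Read as Cy5 over Cy3, 7 regulators were higher and 1 lower, against 45.4% and 33.4% of all features. Rxra was then at 0.54, Nr1h4 at 0.16 and Stat5b at 0.29, while Nr0b2 (0.73), Nfkb2 (0.13) and Cebpd (0.39) kept their sign. Of 6 measured genes of pericentral hepatocytes, where Cyp2e1 is typically strongest, 4 were lower (Cyp1a2, Cyp7a1, the glutathione transferase Gstm2 at -0.82 and the glutamate carrier Slc1a2 at -0.49), and Aldh1a1 was higher (median -0.66). In the Cy5 over Cy3 reading 2 were higher and 2 lower.

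Few markers of liver cell types were measured beside these genes. Of 5 measured hepatocyte markers, 4 were called higher, against 12% of all features (median 0.26, range 0.10 to 0.38). Apoa1 led at 0.38, with Tf at 0.37 and Ttr at 0.26. Without centring none was higher, against 1.7% of all features, and the median was -0.13. Without array 1, 2 or 4 the count of higher markers was 2, and without array 3 it was 3. The cholangiocyte markers Aqp1 (-0.02, -0.022) and Spp1 (0.14) did not pass (median 0.06). Cd53 of leukocytes was at -0.27, Col1a1 of stellate cells at -0.23 with Vim at 0.06 (median -0.08), Kdr of endothelium at -0.33 with Tek at -0.04 (median -0.18), and the platelet factor Pf4 at -0.02 (-0.022). Of these 6, Cd53, Col1a1 and Kdr were called lower, but the calls of Cd53 and Col1a1 were lost without array 2, 3 or 4, and that of Kdr without array 1 or 2. In the Cy5 over Cy3 reading Cd53 was at 0.27, Col1a1 at -0.06 and Kdr at -0.15. There 4 hepatocyte markers were higher and 1 lower, against 45.4% and 33.4% of all features. The part of these cell types in the ratios of the Cyp2 genes was not tested.

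**Figure D5:**
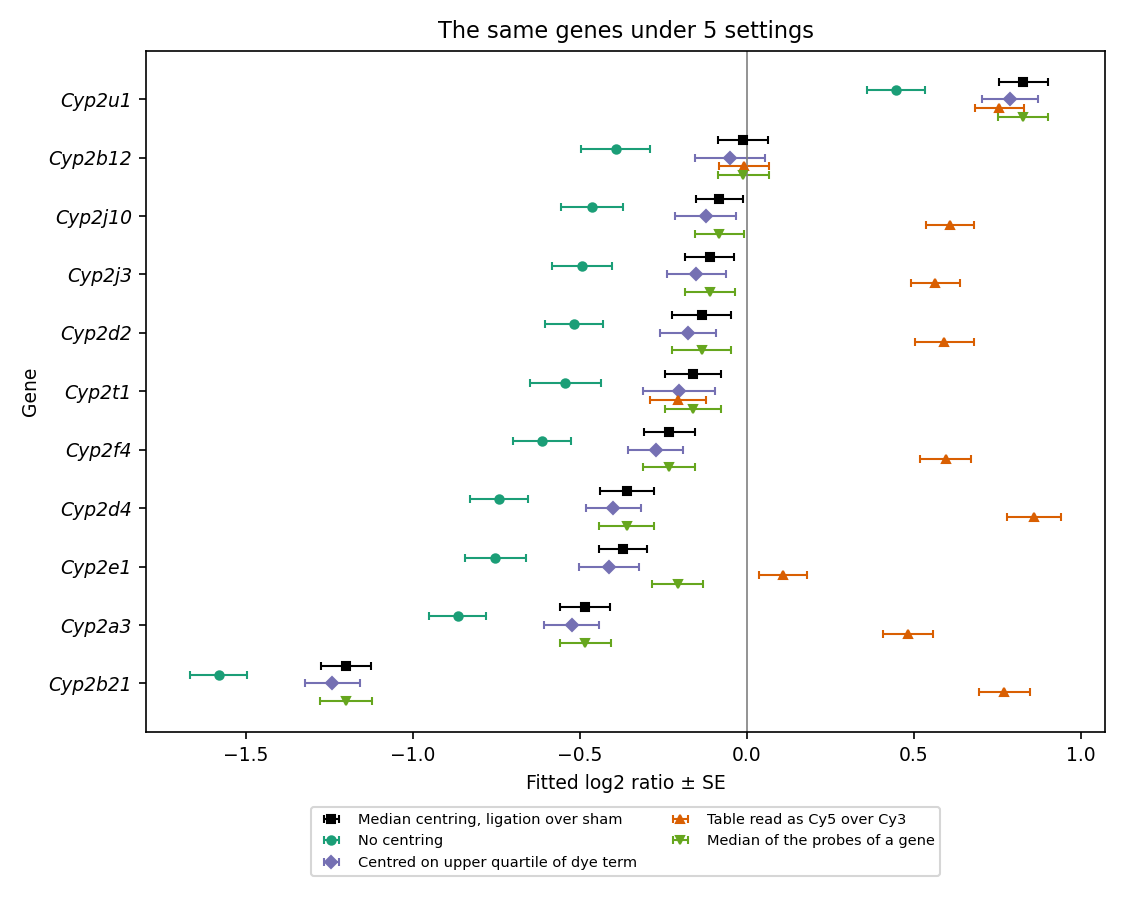
Fitted log2 ratio ± SE of the 11 genes under 5 settings, with black squares for median centring and ligation over sham. Leaving out the centring moves every gene by -0.38. Reading the centred values as Cy5 over Cy3 moves Cyp2b21 from -1.20 to 0.77 and leaves Cyp2u1 at 0.75. The median of the probes changes Cyp2e1 to -0.21.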

How the data were processed

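The authors deposited 1 log ratio per probe and array, taken here as log2, and the log base, direction, scanning and normalization of these values were not given in the sources used here. Values were read as channel 2 (ligation) over channel 1 (sham). Genes were named from the platform's probe table, in which 1432 of 1936 probes had 1 symbol. The 288 spots at 18 positions unnamed in each of 16 print blocks were taken as controls, by position, and left out of the fits. Each array was first centred on the median of all its spots, controls included. Probes of a gene were then averaged per array, and a ligation and a dye term were fitted with limma 3.58.1 in R 4.3.3 (eBayes, Benjamini-Hochberg over 1174 features), a fit checked on simulated data. Upstream windows were aligned with Biopython 1.88 (global, match 1, mismatch -1, gap opening -3, gap extension -1). Members, gene lists (electron transfer, 2C, families 1, 3 and 4, steroid P450, other oxidation, haem, regulators, pericentral, cell type markers) and alternatives were chosen with earlier results of these data known. Named genes were all members, the 3 called genes of each list with the largest ratio, and the 3 nearest to each member in the 4 centred values; further list members were named after their values were seen. The alternatives were other centrings, quantile normalization, Cy5 over Cy3, no dye term, a robust prior, other ways to combine probes, control spots kept, and each array left out. Keeping the control spots did not change the centring. The probes' sequences were not used here.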

Additional observations from a re-analysis of the deposited data

How the results depend on the processing

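Under print-block centring, quantile normalization, a robust prior, kept control spots and clone-wise averaging (added after seeing the data), 6 members were called, 5 lower and 1 higher. Without centring, 11 members (10 lower) and 19 member probes (18 lower) were called, and 985 of all features (20 higher, 965 lower). Probes 130 and 1345 of Cyp2e1 then stood at -0.32 and -0.24. Read as Cy5 over Cy3 after centring, 9 members were called (8 higher, 1 lower), 16 member probes (14 higher, 2 lower) and 925 features (533 higher, 392 lower). The signs turned for Cyp2a3 (0.48), Cyp2b21 (0.77), Cyp2d2 (0.59), Cyp2d4 (0.86), Cyp2e1 (0.11), Cyp2f4 (0.59), Cyp2j10 (0.61) and Cyp2j3 (0.56). They also turned for probes 130 (-0.87), 222 (0.0608), 389 (0.86), 426 (0.57), 437 (0.39), 1009 (0.56), 1034 (0.62), 1234 (0.79), 1345 (-0.12), 1359 (0.57), 1366 (0.85) and 1639 (0.68). Without a dye term limma called 0 members and 0 features, with 1 member and 74 features at an unadjusted p under 0.05, because the dye difference then enters the error. All features called higher numbered 239 with control spots kept, and 79 with centring on the upper quartile of the dye term (added after seeing the data), which left 6 members called. Cyp2b12, never called with centring, was at 0.02 (0.0235) with print-block centring, and at -0.0683 to 0.0465 when 1 array was left out. Over the same fits, probe 130 ran from -0.0347 to 0.155, probe 222 from -0.196 to 0.0688 and probe 1363 from -0.241 to 0.0434, none called. Without 1 array, 5 to 7 members were called (4 to 6 lower, 1 higher), 7 to 9 member probes (6 to 8 lower, 1 higher) and 253 to 308 features (96 to 144 higher, 144 to 198 lower). Cyp2b21, Cyp2a3, Cyp2d4, Cyp2e1 and Cyp2u1 kept their calls in each of these 4 fits. Without array 2, however, Cyp2a3, Cyp2b12, Cyp2b21, Cyp2d2 and Cyp2d4 had the same SE of 0.115. A call kept there sets the size of the ratio against a pooled SE and does not measure the spread of the gene itself. The cause of these changes was not tested. Each array holds both pools and gives 1 ratio, so the comparison is paired by array and no other pairing was possible.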

Other observations

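Of the 10 genes with the widest range of fitted log2 ratios over their probes, out of 340 genes with several probes, 5 had symbols of P450 or cytochrome b5 genes, as had 19 of the 340, a grouping made after the values were seen and given with no test. The widest range was that of the bile acid enzyme Cyp8b1, 2.95 (-3.04 and -0.09). Cyb5a, the cytochrome b5 that assists P450 reactions, had the third widest, 1.58, with 6 probes from -1.06 to 0.52. Cyp2c12 followed at 1.54, Cyp2e1 at 1.498, and Cyp2c23 was the tenth at 0.97. In contrast, the probes of Cyp1a2 differed by 0.03 (0.0295), those of Cyp2d4 by 0.03 (0.0271) and those of Cyp2j3 by 0.02 (0.0229).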
